A study of Drosophila melanogaster with 8 samples.

Results

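The cuticle protein genes of Drosophila melanogaster were followed in RNA from whole females of 2 genotypes at 2 stages. Members were chosen by name, as every gene model whose symbol begins with Cpr and a digit, Lcp, Ccp84A, Pcp, Edg and a digit, Acp65A or Twdl. The rule found 126 of the 15296 gene models in each library, which carry 122 symbols. A4/A4 animals carry In(2)A4, an inverted chromosome 2, on both homologs. The series was made to study position effect variegation, in which genes placed beside heterochromatin are silenced in some cells and not in others. For A12/A12 animals the labels give the genotype A12/A12 and name no rearrangement, and the design speaks of a wild type. Each genotype was sampled as larvae and as adults, which gives 4 groups of 2 libraries (A12 or A4, larvae or adults). Larvae were in the third instar and adults were 2 to 3 days old, all animals were female and all were raised at 18 °C. A4 larvae were picked as non-fluorescent animals from a stock that carries a CyO-GFP balancer chromosome. The labels do not give the time within the third instar, so progress through the instar and genotype cannot be told apart in any larval comparison. Coordinates are those of the deposited files, build dm3, counted from 1.

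Insect cuticle is a layered matrix of chitin fibres and proteins that the epidermis secretes anew around each moult, under pulses of the steroid ecdysone. Most of its proteins belong to the CPR family, whose members share the Rebers and Riddiford consensus, a chitin-binding region. The Drosophila genes were named for the cuticle in which a protein was first seen (Lcp for larval, Pcp for pupal, Acp for adult), for their response to ecdysone (Edg) or, in the case of Cpr, for the map section of the chromosome. Tweedle proteins (Twdl) form a separate insect family, known from TwdlD mutants with squat larvae and pupae. Related genes stand next to each other in map clusters, which are here runs of at least 3 members less than 50 kb apart.

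Levels are given as FPKM, fragments per kilobase of gene model, scaled to the mapped fragments of the library. Differences are on the scale log2(FPKM + 1) with their standard error, which understates the change of weakly expressed genes. A gene was tested if its mean over the 8 libraries was at least 1 FPKM, and it was called if the Benjamini-Hochberg adjusted p of limma was at most 0.05. Of the 126 gene models 59 were tested, among 9679 genes in all. A member that was high in 1 group and near 0 elsewhere entered through that group, so counts over the tested members do not describe the whole family. Each group had n = 2, and the labels do not say that replicates were separate cultures. A p-value here thus reflects the spread between libraries alone, which may be technical. The 4 groups shared 1 estimate of that spread, so adult libraries at or near 0 can lower the larval standard error and p. Lcp9, at 0 in all adults, had a larval adjusted p of 0.0209 in limma, and 0.127 with the larval groups fitted alone. In whole animals, fewer epidermal cells and less RNA per cell cannot be told apart.

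The files carry no read counts, so the depth was not known in absolute terms. The libraries had 0.895 to 1.26 times the depth of A4 larvae replicate 1, as judged from the deposited bounds of 404 genes with low values. The stage labels matched their markers. Summed over 17 adult female markers (yolk protein, vitelline membrane, chorion and opsin genes), larvae held 9.82 to 19.97 FPKM and adults 11268 to 23232. Summed over 6 larval serum and fat body protein genes, larvae held 38245 to 59840 FPKM and adults 65.9 to 98.2. A4 larvae replicate 2 stood apart in male markers. Of 20 male and testis markers, 11 reached 1 FPKM in it, against 1 to 3 in the other larval libraries and 0 in every adult library, and their summed level was 117 FPKM in it against 4.10 to 14.3 in the other larvae. The male RNA roX2 stood at 0.338 and 34.9 FPKM in the A4 larvae and at 4.65 and 0.277 in the A12 larvae. Larval counts are therefore also given without that library.

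Cuticle gene RNA was mostly larval. The members summed to 30285 and 32910 FPKM in A4 larvae, 13794 and 23471 in A12 larvae, 665 and 887 in A4 adults and 580.4 and 1081 in A12 adults. Larvae lay above adults without overlap, and both A4 larval libraries lay above both A12 larval ones. The summed FPKM of all genes also differed between libraries. As a share of it, the members held 1.70% and 1.24% in A4 larvae and 0.504% and 1.07% in A12 larvae. In adults that share was 0.0227% to 0.0422%. By share, replicate 2 of A4 and replicate 2 of A12 larvae thus lay close together. A few genes made up these sums, since the 4 highest members held 77.1% to 88.2% of the sum in a larval library and 68.0% to 74.1% in an adult one. By group mean, 30 members reached 1 FPKM in larvae alone, 8 in adults alone, 25 at both stages and 63 at neither. Members at 1 FPKM or more numbered 51 and 48 in the A4 larvae, 37 and 39 in the A12 larvae, 33 and 35 in the A4 adults and 30 and 31 in the A12 adults. In all, 15 members exceeded 100 FPKM in a larval group and 2 did so in an adult group.

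Lcp4, a main protein of larval cuticle, was the highest member in both larval groups, at 16122 and 20159 FPKM in A4 and 4556 and 10801 in A12. Next in A4 larvae came Lcp3 at 7702 and 5585 FPKM and Lcp1 at 1857 and 2001. Next by mean in A12 larvae came Cpr78E at 1927 and 3133 and Lcp1 at 1261 and 3101. That order rests on replicate 2, since in replicate 1 Cpr49Ac (2393 FPKM) stood above Cpr78E and Pcp (1765) above Lcp1. Adults had another order. Cpr65Au led at 223 and 229 FPKM in A4 and 214 and 321 in A12, followed by Acp65Aa, an adult cuticle protein gene, at 93.8 and 211 in A4 and 55.6 and 258 in A12. Next came Cpr49Ae in A4 adults (63.2 and 125 FPKM) and Cpr49Ab in A12 adults (67.1 and 114). The place of Acp65Aa in A12 adults is not settled, since in replicate 1 it stood below Cpr49Ab (67.1 FPKM) and Cpr67B (61.4). Its adult FPKM also lay above its own deposited bounds in every library, which were 41.7 to 54.2 in A4 adults replicate 1 and 31.3 to 43.4 in A12 adults replicate 1.

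The 67 untested members were low throughout, and the highest single value among them was 2.34 FPKM, for Cpr64Aa. All 7 Ccp84A genes, a cluster on chromosome arm 3R, were among them, as were 22 of 25 Tweedle genes, 2 of 3 Edg genes, 6 of 13 gene models of the Lcp65A and Acp65A set and 30 of 72 Cpr models. The 12 Tweedle genes from TwdlM to TwdlD on 3R did not exceed 1.26 FPKM in any library. Listed at 0 in all 8 libraries were 16 gene models. Of these, 8 belong to 4 symbols (Lcp65Ab1, Lcp65Ab2, Cpr65Ax1 and Cpr65Ax2) that the files place at 2 loci each. Among all genes, 239 of 262 gene models of symbols at several loci were listed at 0 throughout, against 1348 of 15034 with 1 locus. A listed 0 for a duplicated cuticle gene is therefore no measure of its expression.

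**Figure D1:**
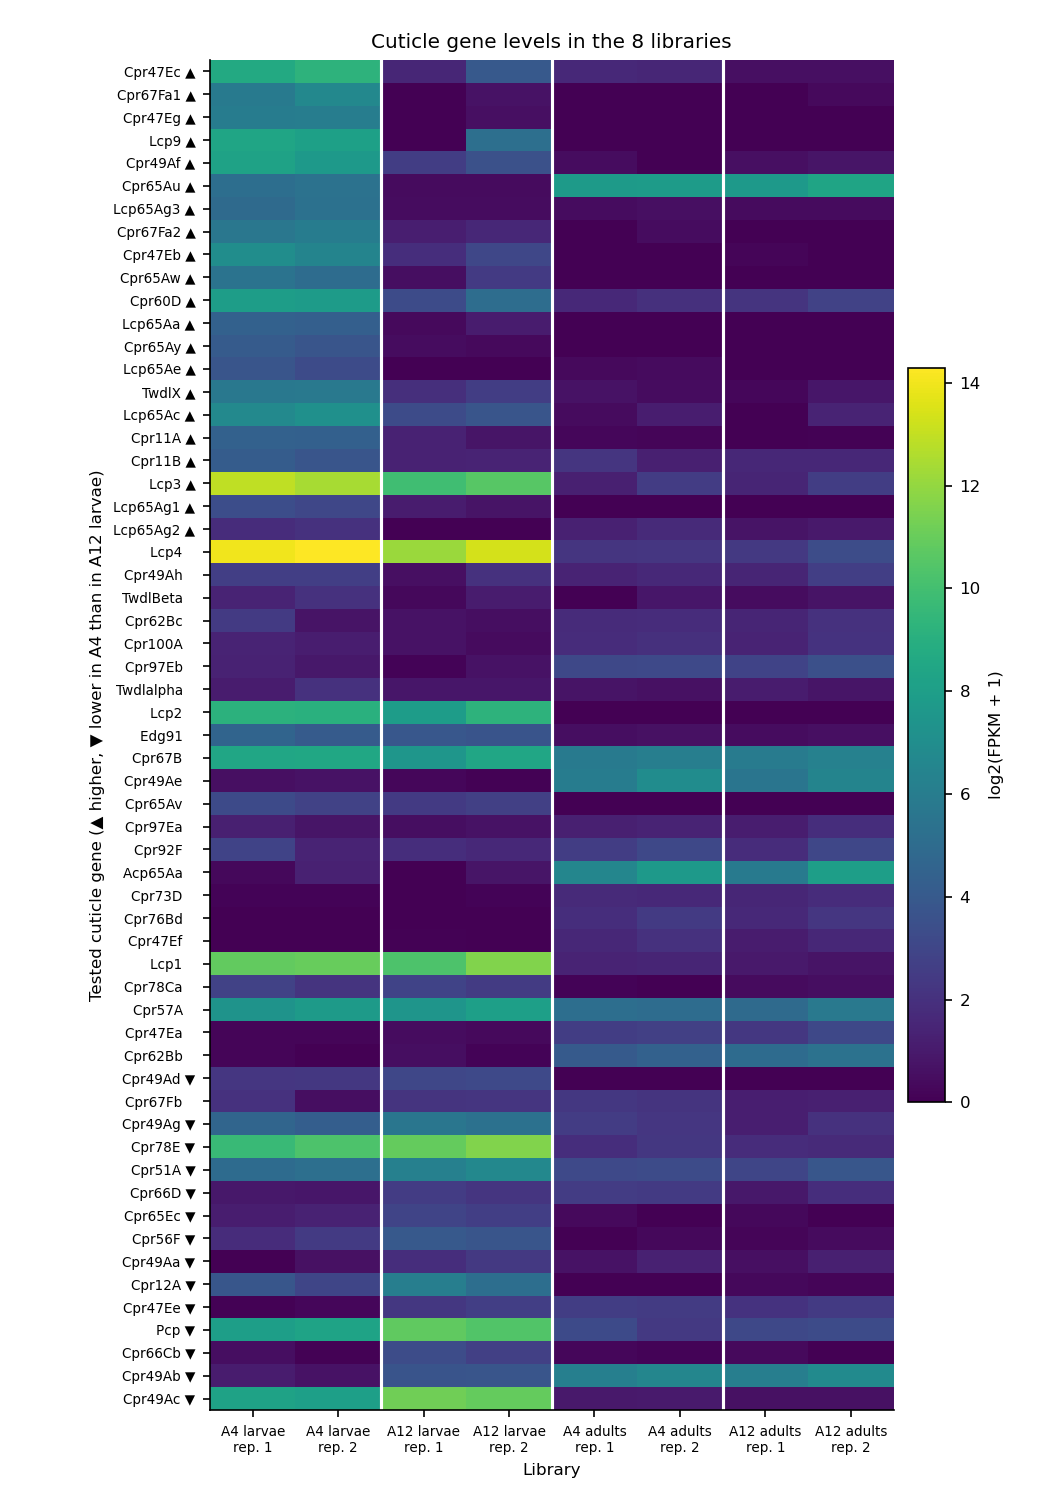
Heat map of the 59 tested cuticle genes (rows, ordered by the A4 minus A12 difference in larvae) in the 8 libraries (columns), coloured by log2(FPKM + 1). Triangles mark the 21 genes called higher and the 14 called lower in A4 larvae, and the larval columns of the genotypes differ more than the adult ones.

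The larval comparison asked how cuticle gene levels depend on genotype in the third instar. Called higher in A4 were 9 of 11 tested genes of the 65A cluster, 3 of 6 of 47E and 2 of 3 of 67F. Lcp3 and Lcp9 were also called higher, with more spread between libraries. Pcp, 1 gene of 47E and 5 of 8 genes of the 49A cluster were lower, the last reduced to 2 by median centring. Of the 59 tested members 21 were called higher (35.6%), where 8.75% of all tested genes were, and 14 were called lower (23.7%), where 25.9% of all genes were. The share called lower is thus near the background. Members high in larvae of 1 genotype and near 0 elsewhere entered the test through that group. The shares of the 59 are therefore not directly comparable with those of all genes. With no minimum mean, 24 of 110 members were higher (21.8%) and 13 lower (11.8%), where 6.21% and 16.4% of all genes were. The median difference was 0.57 for the 59 members and -0.43 for all tested genes, so that the members lay 0.99 above the median of all genes. After median centring, which removes that shift, 24 members were higher and 8 lower, with 13.7% and 10.1% of all genes. Without A4 larvae replicate 2 the counts were 21 and 11. Without A4 larvae replicate 1 they were 20 and 9. The number called lower was 9 to 11 whichever larval library was left out. Ecdysone regulators, tanning genes and glue genes also differed between these larvae, as given further on, and their part in the cuticle gene differences was not tested.

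Cpr47Ec (2R 7146822 to 7147344) had the largest fitted difference. It stood at 412 and 612 FPKM in A4 larvae and at 1.93 and 15 in A12 larvae, a log2 difference of 6.20 ± 0.68 (adjusted p = 0.000848). The groups did not overlap, but the A12 libraries were far apart, and the difference was 4.98 without A12 larvae replicate 1 and 7.42 without replicate 2, so its rank rests on 1 library. Its cluster members Cpr47Eb and Cpr47Eg moved the same way. Cpr47Eb stood at 127 and 85.7 FPKM against 2.71 and 7.37, a difference of 4.24 ± 0.39 (adjusted p = 0.000408) that was 3.65 without A12 larvae replicate 1 and 4.83 without replicate 2. Cpr47Eg was listed at 0 in A12 larvae replicate 1 and stood at 0.494 FPKM in replicate 2, against 62 and 65.2 in A4 larvae, a difference of 5.72 ± 0.24 (adjusted p = 2.17e-05). Its A4 larval FPKM lay far above the deposited bounds (20.1 to 33.3 in replicate 1), and with the middle of the bounds the difference was 4.56. These 3 genes lie in the 47E cluster of 7 members (2R 7139256 to 7165946, 6 tested). Another tested gene of the cluster, Cpr47Ee, went the other way. It stood at 0.0463 and 0.203 FPKM in A4 larvae and 4.08 and 5.19 in A12 larvae, a difference of -2.32 ± 0.22 (adjusted p = 0.000457). The 3 higher calls and the 1 lower call of the cluster held under median centring, under quantile normalization and without each larval library in turn.

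The 65A cluster (3L 6123486 to 6154689) holds 22 gene models in 31.2 kb, among them the Lcp65A genes, Acp65Aa and Cpr65Au to Cpr65Az. Of its 11 tested members 9 were called higher in A4 larvae and 0 lower, under median centring and quantile normalization as well. Genes near 0 outside A4 larvae, such as Lcp65Aa and Cpr65Ay, entered the test through that group. The filter thus favours higher calls here, which the rescalings do not change. Summed over the cluster, the level was 282 and 316 FPKM in A4 larvae and 15.9 and 26.4 in A12 larvae. Cpr65Au stood at 35.4 and 41.5 FPKM in A4 larvae against 0.345 and 0.327 in A12 larvae, a difference of 4.88 ± 0.23 (adjusted p = 2.54e-05). Lcp65Ag3 stood at 29.2 and 38.6 FPKM against 0.374 and 0.374, a difference of 4.65 ± 0.22 (adjusted p = 2.54e-05). Both genes were below 1 FPKM in each A12 larval library. The A4 larval FPKM of Lcp65Ag3 lay above its bounds (10.6 to 19.0 in replicate 1), and the middle of the bounds gave a difference of 3.68. Cpr65Aw stood at 41.9 and 32.8 against 0.467 and 4.38 FPKM (3.76 ± 0.53), and Lcp65Aa at 20.3 and 19.4 against 0.294 and 1.1 (3.66 ± 0.27). The highest level of the cluster in larvae was that of Lcp65Ac, at 105 and 143 FPKM in A4 and 8.5 and 12.5 in A12 (3.45 ± 0.49). Cpr65Ay stood at 16.2 and 12.8 FPKM against 0.4 and 0.276 (3.53 ± 0.22). The adjusted p of these 4 genes ran from 0.000103 to 0.00259, and for none of them did the groups overlap. Cpr65Aw differed by 2.82 without A12 larvae replicate 1 and by 4.70 without replicate 2, and was not called with the larval groups fitted alone (adjusted p = 0.0611).

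Close copies within 65A limit what can be said of single genes there. Lcp65Ag1, Lcp65Ag2 and Lcp65Ag3 are near-identical copies, so reads may have been divided among them. Lcp65Ag1 stood at 9.5 and 7.16 FPKM in A4 larvae and 1.14 and 0.696 in A12 larvae, a difference of 2.28 ± 0.24 (adjusted p = 0.00078). Lcp65Ag2 was listed at 0 in both A12 larval libraries and stood at 2.54 and 3.04 in A4 larvae (adjusted p = 0.00156). Lcp65Ae was likewise at 0 in A12 and at 12.4 and 8.75 FPKM in A4 larvae (adjusted p = 0.000138). Not called were Cpr65Av, at 8.2 and 6.06 FPKM in A4 and 4.37 and 5.65 in A12 larvae (adjusted p = 0.178), and Acp65Aa, which did not exceed 1.46 FPKM in any larval library. Cpr65Ay, Cpr65Av, Lcp65Ac, Lcp65Ae, Lcp65Ag1 and Lcp65Ag2 were named after their values were seen, to account for the cluster.

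**Figure D2:**
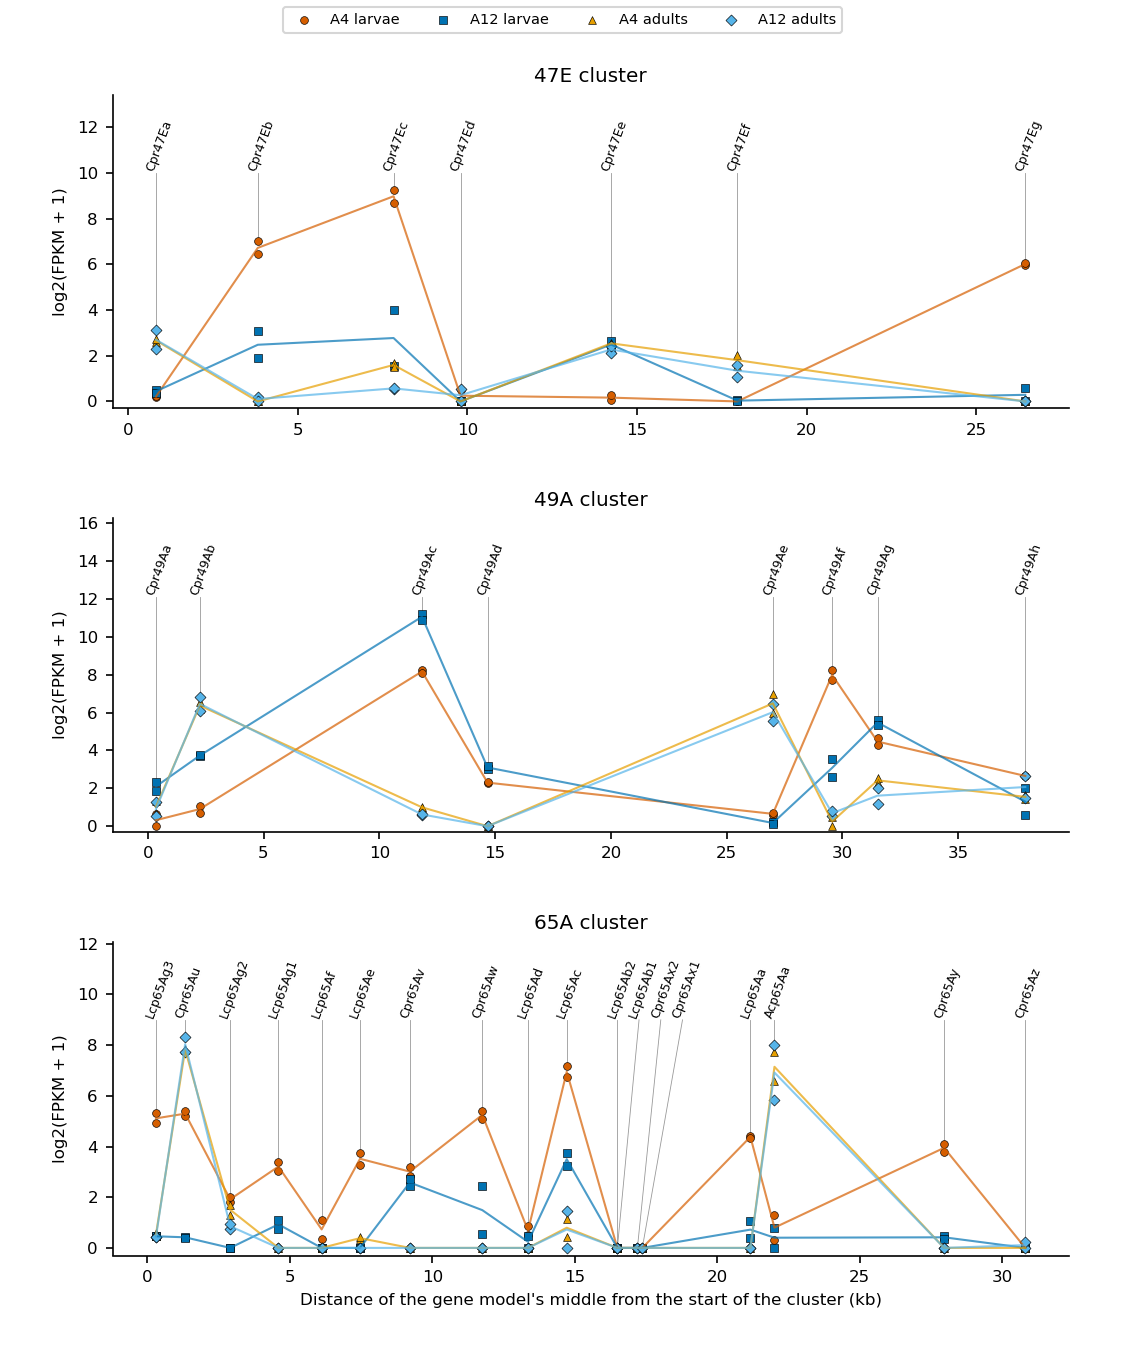
Levels along the 47E, 49A and 65A clusters, with the distance of each gene model's middle from the cluster's start in kb on the x axis and log2(FPKM + 1) on the y axis. Each point is 1 library and lines join group means. The mean of A4 larvae lies above that of A12 larvae for all 11 tested genes of 65A but below it for 5 of 8 genes of 49A, and Acp65Aa of 65A overlaps.

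Some larval cuticle protein genes outside 65A also stood higher in A4 larvae, with more spread between libraries. The Lcp1 to Lcp4 cluster (2R 4317801 to 4326000), whose products are among the most abundant proteins of larval cuticle, summed to 26266 and 28289 FPKM in A4 larvae and to 7014 and 16011 in A12 larvae. Of these genes Lcp3 alone was called, at 7702 and 5585 FPKM against 957 and 1511, a difference of 2.45 ± 0.53 (adjusted p = 0.0135). The call was lost when A4 larvae replicate 1 was left out (adjusted p = 0.0852) and when A12 larvae replicate 1 was (adjusted p = 0.112). Without A12 larvae replicate 2, by contrast, 3 of the 4 genes were called higher. Lcp4, at the levels given above, differed by 1.36 ± 0.45 (adjusted p = 0.0516). Lcp1 and Lcp2 overlapped between the genotypes, Lcp1 with a difference of -0.04 ± 0.38 and Lcp2 with 0.57 ± 0.38. Lcp1 with Lcp2 and Lcp3 with Lcp4 are close copies, so their separate levels carry the same doubt as those of Lcp65Ag. Lcp9 (2R 20667502 to 20667951) stood at 336 and 279 FPKM in A4 larvae, was listed at 0 in A12 larvae replicate 1 and stood at 36.5 in replicate 2. The difference was 3.04 without A12 larvae replicate 1 and 8.26 without replicate 2. Its fitted difference of 5.65 ± 1.39 (adjusted p = 0.0209) was no longer called without A4 larvae replicate 1 (adjusted p = 0.105) or replicate 2 (0.0826).

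Other CPR genes were higher in A4 larvae as well. The pair Cpr67Fa1 and Cpr67Fa2 of the 67F cluster (3L 10883090 to 10887793) are close copies, and both were called. Cpr67Fa1 stood at 56.9 and 101 FPKM in A4 larvae and at 0 and 0.639 in A12 larvae, a difference of 5.91 ± 0.35 (adjusted p = 8.92e-05). Cpr67Fa2 stood at 50.5 and 63.9 against 1.3 and 2.02, a difference of 4.45 ± 0.26 (adjusted p = 7.43e-05). The A4 larval FPKM of Cpr67Fa1 lay above its bounds (43.3 to 56.1 in replicate 2), and the middle of the bounds gave differences of 5.17 for Cpr67Fa1 and 3.80 for Cpr67Fa2. The third gene of that cluster, Cpr67Fb, was not called. Cpr49Af (2R 8293510 to 8293948) stood at 303 and 212 FPKM in A4 larvae and 5.16 and 10.6 in A12 larvae, a difference of 4.91 ± 0.35 (adjusted p = 0.000155). Cpr60D (2R 20550374 to 20550929) stood at 246 and 233 against 8.79 and 33 FPKM, a difference of 3.72 ± 0.53 (adjusted p = 0.00265). For Cpr60D the difference was 2.82 without A12 larvae replicate 1 and 4.62 without replicate 2, and it was not called with the larval groups fitted alone (adjusted p = 0.0566). In none of these called genes did the genotypes overlap. On the X chromosome, Cpr11A stood at 20.3 and 19.7 against 1.57 and 0.77 FPKM (3.30 ± 0.24) and Cpr11B at 16.8 and 12.8 against 1.53 and 1.71 (2.58 ± 0.32), both named after their values were seen. The Tweedle gene TwdlX (X 16625124 to 16626663) stood at 52.4 and 53.7 FPKM in A4 larvae and 2.76 and 4.99 in A12 larvae, a difference of 3.51 ± 0.30 (adjusted p = 0.000314). It was the 1 called gene of 3 tested Tweedle genes. Its model overlaps that of CG9634, which stood at 7.13 and 6.43 FPKM in A4 and 10.3 and 6.83 in A12 larvae and was not called.

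Of the 14 members lower in A4 larvae, 5 belong to the 49A cluster and the others, Pcp among them, lie elsewhere. Cpr49Ac (2R 8274472 to 8277562) stood at 305 and 271 FPKM in A4 larvae and at 2393 and 1915 in A12 larvae, a difference of -2.89 ± 0.18 (adjusted p = 0.000102). Cpr49Ab stood at 1.13 and 0.648 FPKM against 12 and 12.6, a difference of -2.83 ± 0.28 (adjusted p = 0.00057). Cpr49Aa stood at 0 and 0.554 against 2.62 and 4.09 (-1.78 ± 0.38, adjusted p = 0.0134). With Cpr49Ad (-0.80 ± 0.20) and Cpr49Ag (-1.01 ± 0.30), named after their values were seen, 5 of the 8 members of the cluster (2R 8264175 to 8302675) were called lower and Cpr49Af alone higher. After median centring 2 of the 8 were called lower, although 5 had a negative difference in either case. Without A4 larvae replicate 1 the count was 2, without A12 larvae replicate 2 it was 3, and without either of the other larval libraries it was 4. Summed over the cluster the level was 643 and 514 FPKM in A4 larvae and 2468 and 1993 in A12 larvae, most of it from Cpr49Ac.

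Pcp (2L 7021682 to 7022473), the gene of a pupal cuticle protein, stood at 254 and 308 FPKM in A4 larvae and 1765 and 1379.6 in A12 larvae, a difference of -2.48 ± 0.29 (adjusted p = 0.00121). Its FPKM lay above the deposited bounds in every larval library (199 to 228 in A4 and 1214 to 1276 in A12 larvae replicate 1). The middle of the bounds gave a difference of -2.29. Pcp lies within the model of ade3, a gene of purine synthesis, and ade3 showed the same pattern, at 63.8 and 74.9 against 429 and 444 FPKM, a difference of -2.64 ± 0.17 (adjusted p = 0.000123). In adults the levels of the 2 genes were unlike, with ade3 at 81.2 to 82.1 FPKM and Pcp at 4.21 to 8.49. The sources used here do not say whether reads were assigned by strand. Whether reads of 1 of these overlapping models were counted for the other was not tested. Cpr66Cb stood at 0.428 and 0.0735 FPKM against 9.02 and 5.42 (-2.70 ± 0.31), and Cpr12A at 12.9 and 6.94 against 69.2 and 35.1 (-2.26 ± 0.37). Cpr56F stood at 2.51 and 4.32 against 15.1 and 12.7 (-1.78 ± 0.27), and Cpr65Ec at 1.25 and 1.61 against 6.62 and 5.32 (-1.52 ± 0.26). The adjusted p of these 4 genes ran from 0.00106 to 0.00543, and none overlapped between genotypes. Cpr66D stood at 0.909 and 0.832 FPKM against 4.86 and 3.53 (-1.46 ± 0.33, adjusted p = 0.0157). Cpr51A stood at 31.1 and 36.4 against 75.1 and 102 (-1.35 ± 0.30, adjusted p = 0.0143), and CG30197, whose model it overlaps, at 49.3 and 44.8 against 82.1 and 90.2. Cpr78E, one of the highest cuticle genes in both genotypes, stood at 836 and 1272 FPKM against 1927 and 3133 (-1.25 ± 0.32, adjusted p = 0.0231). The calls of Cpr49Aa, Cpr51A, Cpr66D and Cpr78E were lost after median centring, with adjusted p of 0.0803, 0.132, 0.0936 and 0.162, while their differences stayed negative. Leaving out 1 larval library ended calls of the same 4 genes. The call of Cpr51A was lost without each larval library in turn, that of Cpr66D without any of them but A12 larvae replicate 2, and those of Cpr78E and Cpr49Aa when replicate 1 of A4 or replicate 2 of A12 was left out. With the compared groups alone, Cpr12A (adjusted p = 0.0695) and Cpr56F (0.0517) were not called, and with a pseudocount of 0.1 Cpr65Ec (0.0995) was not.

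**Figure D3:**
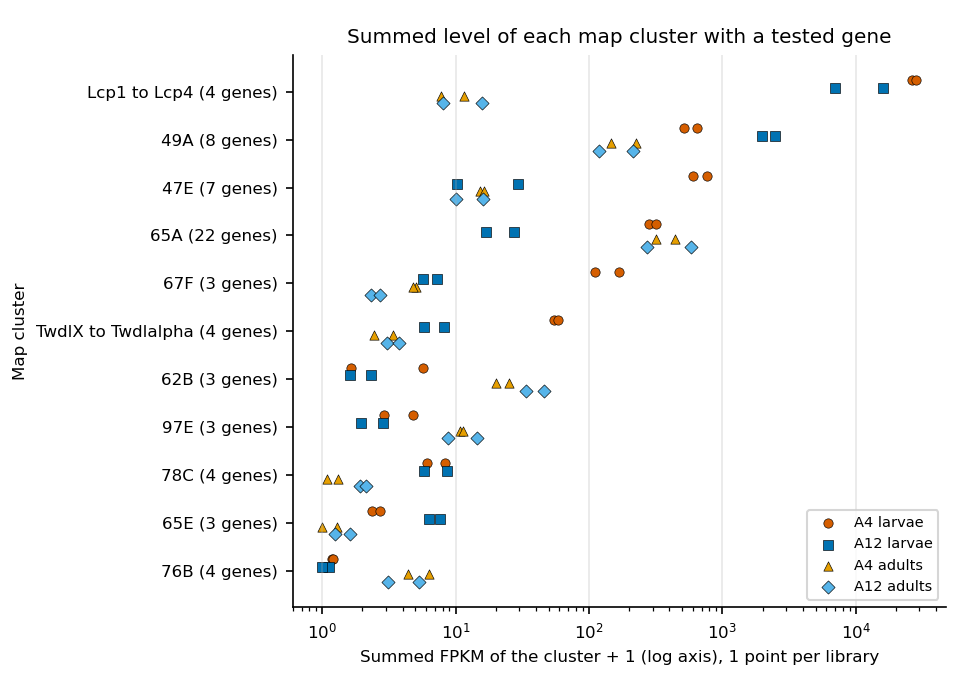
Summed FPKM of each map cluster with a tested gene, plus 1, on a log axis, with 1 point per library and the number of gene models in brackets. In larvae the sums of 65A, 47E and 67F are higher in A4 and those of 49A and 65E higher in A12, while the adult points of the genotypes overlap in most clusters.

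Adult females of the 2 genotypes were compared next. No difference between A4 and A12 adults was called for any cuticle gene. Of the 59 tested members 0 were called higher, where 0.217% of all tested genes were, and 0 lower, where 0.517% were, with limma. The count was 0 under every alternative setting too. Many of the 59 entered through larvae and stood at or near 0 in all adult libraries, as Lcp2, Lcp9 and Cpr47Eg did. An adult call was hardly possible for such genes, and their differences lie near 0. The 0 of 59 is therefore not comparable with the shares of all genes. By group mean, 8 of the 126 members reached 1 FPKM in adults alone and 25 at both stages. At an unadjusted p under 0.05 there were 4 members (Cpr62Bb, Cpr66D, Cpr49Ag and Lcp65Ag2), with 10.5% of all tested genes below that p. Differences ran from -0.94 for Cpr62Bb to 1.07 for Cpr66D, with a median of 0.00. Cpr62Bb stood at 15.7 and 20.7 FPKM in A4 adults and 30.6 and 41.5 in A12 adults, a difference of -0.94 ± 0.25 (adjusted p = 0.272). Cpr66D stood at 4.78 and 4.34 against 0.886 and 2.7 FPKM, a difference of 1.07 ± 0.33 (adjusted p = 0.351). For both genes the libraries did not overlap between genotypes. The missing calls do not show that adults are alike. The main adult genes overlapped between genotypes. Summed over the 65A cluster, A4 adults held 319 and 444 FPKM and A12 adults 271 and 583.

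The stage comparisons asked how each genotype's cuticle gene levels differ between larvae and adults. Most called members were lower in adults, among them all of Lcp1 to Lcp4, and a smaller group led by Acp65Aa, Cpr65Au, Cpr49Ae and Cpr49Ab was higher in adults. In A12, 13 tested members were called higher in adults (22.0%), where 41.1% of all tested genes were, and 31 lower (52.5%), where 17.6% were. In A4, 12 were higher (20.3%), where 55.8% of all genes were, and 37 lower (62.7%), where 13.9% were. Members had a median difference of -1.04 in A12 and -2.43 in A4, where all tested genes had 0.48 and 0.88, so that relative to all genes the members lay at -1.52 and -3.31. In both genotypes 28 members were lower in adults and 10 were higher. The share of all tested genes with such joint calls is not given here, so these counts have no background beside them. Members that entered the test through larvae also favour lower calls in adults. The 2 stage comparisons hold different libraries but each shares its libraries with the genotype comparisons.

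The 6 largest falls in A12 were those of Lcp1 to Lcp4, Cpr49Ac and Cpr78E, and in A4 those of Lcp1 to Lcp4, Lcp9 and Cpr78E. Lcp4 stood at 3.66 to 8.85 FPKM over the 4 adult libraries, against the larval levels given above, and differed by -9.93 ± 0.45 (adjusted p = 2.86e-06) in A12 and -11.89 ± 0.45 (adjusted p = 1.68e-06) in A4. Lcp1 stood at 0.67 to 1.76 FPKM in adults, and differed by -10.10 ± 0.38 in A12 and -9.47 ± 0.38 in A4. Lcp3 stood at 1.39 to 5.17 FPKM in adults, with differences of -8.18 ± 0.53 and -10.77 ± 0.53. Every larval library of these genes lay above every adult one. Lcp2 was listed at 0 in all adult libraries and stood at 241 to 598 FPKM in larvae (adjusted p = 2.59e-06 in A12 and 2.27e-06 in A4). Lcp9 was also at 0 in all adults and was called in A4 (adjusted p = 0.00147) but not in A12 (adjusted p = 0.144). Cpr49Ac stood at 0.531 to 1.02 FPKM in adults, and differed by -10.44 ± 0.18 (adjusted p = 3.25e-07) in A12 and -7.18 ± 0.18 (adjusted p = 8.64e-07) in A4. Cpr78E stood at 2.22 to 4.01 FPKM in adults, with differences of -9.50 ± 0.32 and -7.92 ± 0.32. Pcp fell as well, to 4.21 to 8.49 FPKM in adults (-7.42 ± 0.29 in A12 and -5.34 ± 0.29 in A4). Edg91, an ecdysone-dependent gene named here after its values were seen, stood at 12.1 to 23 FPKM in larvae and 0.41 to 0.587 in adults, with adjusted p of 1.73e-05 in A12 and 1.04e-05 in A4. Cpr78Ca, the tested gene of the 78C cluster, stood at 3.47 to 6.25 FPKM in larvae and 0 to 0.443 in adults, and was called in both genotypes.

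Higher in adults of both genotypes were 10 members. Acp65Aa stood at 55.6 to 258 FPKM in adults and 0 to 1.46 in larvae, a difference of 6.52 ± 0.75 (adjusted p = 0.000266) in A12 and 6.35 ± 0.75 (adjusted p = 0.000314) in A4. Cpr49Ae stood at 46.7 to 125 FPKM in adults and 0.0757 to 0.62 in larvae (5.86 ± 0.38 in A12 and 5.84 ± 0.38 in A4). For both genes, every adult library lay far above every larval one. Cpr62Bb stood at 15.7 to 41.5 FPKM in adults and 0 to 0.445 in larvae (4.85 ± 0.25 and 4.17 ± 0.25). Cpr97Eb of the 97E cluster stood at 6.26 to 10.3 FPKM in adults and 0.0908 to 1.62 in larvae (2.76 ± 0.32 and 1.99 ± 0.32). Cpr47Ea stood at 3.9 to 7.6 FPKM in adults and 0.151 to 0.413 in larvae (2.26 ± 0.29 and 2.46 ± 0.29). Cpr76Bd was listed at 0 in all larval libraries and stood at 2.1 to 4.32 FPKM in adults, with adjusted p of 0.00116 in A12 and 0.00067 in A4. The remaining genes of the 10 were Cpr65Au, Cpr49Ab, Cpr47Ef, which did not exceed 3.11 FPKM, and Cpr73D, which did not exceed 2.45. The 47E, 49A and 65A clusters thus hold genes that were higher in adults beside genes that were lower.

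Some stage differences were called in 1 genotype alone, which by itself does not show that the genotypes differ. Those of Cpr65Au and Cpr49Ab were called in both genotypes, with unlike sizes. Cpr65Au differed by 7.62 ± 0.23 (adjusted p = 7.75e-07) in A12 and by 2.53 ± 0.23 (adjusted p = 9.1e-05) in A4, with like adult levels and unlike larval ones. Cpr49Ab differed by 2.73 ± 0.28 (adjusted p = 0.00016) in A12 and by 5.47 ± 0.28 (adjusted p = 6.23e-06) in A4. Lower in A4 adults than in A4 larvae but not called in A12 were 9 members. Lower in A12 alone were 2, higher in A4 alone 1 and higher in A12 alone 3, and 5 were called in neither. For these counts too, no share of all tested genes is given. In 1 gene the directions were opposite. Cpr66D was lower in A12 adults than in A12 larvae (-0.96 ± 0.33, adjusted p = 0.0387) and higher in A4 adults than in A4 larvae (1.57 ± 0.33, adjusted p = 0.00418), and its interaction is given next.

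The interaction, the larval genotype difference minus the adult one, tests this directly. It was called above 0 for 19 of the 59 tested members (32.2%), where 6.75% of all tested genes were, and below 0 for 10 (16.9%), where 10.9% were. The median was 0.59 for the members and -0.37 for all tested genes. After median centring the calls were 19 and 6, with 9.65% and 5.93% of all genes. The number below 0 also fell to 5 when A12 larvae replicate 1 or A4 adults replicate 1 was left out, and to 6 when any 1 of the other 3 adult libraries was. Of the 11 tested members of the 65A cluster 9 were called above 0 and 0 below. Of the 8 in 49A, 1 was above and 3 were below. The 6 members with the smallest adjusted p were Cpr47Eg, Cpr65Au, Lcp65Ag3, Cpr49Ac, Cpr67Fa1 and Cpr67Fa2. Cpr65Au had 5.10 ± 0.32 (adjusted p = 0.00026), Lcp65Ag3 4.56 ± 0.30 (adjusted p = 0.000319) and Cpr49Ac -3.27 ± 0.26 (adjusted p = 0.000594). Cpr67Fa1 had 6.10 ± 0.50 (adjusted p = 0.000687) and Cpr67Fa2 4.21 ± 0.37 (adjusted p = 0.000864). Cpr47Eg had 5.72 ± 0.34 (adjusted p = 0.000234), with all 4 adult libraries listed at 0. For Cpr66D it was -2.53 ± 0.47 (adjusted p = 0.0132). The interaction shares all its libraries with the comparisons above and adds no independent measurement to them. A gene at or near 0 in all adult libraries can show no adult genotype difference, so its interaction restates the larval difference. For Cpr47Eg (5.72), Cpr65Aw (3.76) and Lcp65Aa (3.66), at 0 in all adults, the 2 values are the same. Such genes entered the test through larvae.

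**Figure D4:**
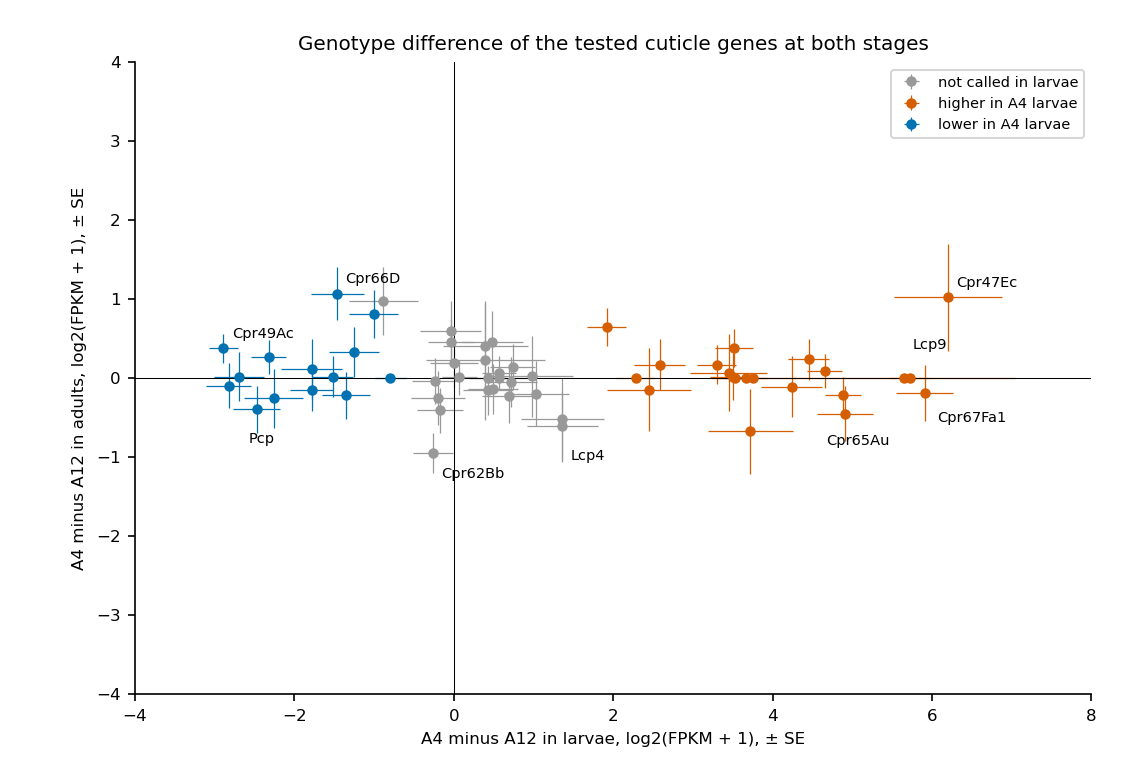
A4 minus A12 difference in larvae (x axis) and in adults (y axis) for the 59 tested cuticle genes, both on the log2(FPKM + 1) scale, with bars of 1 standard error. Larval differences spread from -2.89 to 6.20, while adult differences lie between -0.94 and 1.07. Many of these genes stood at or near 0 in all adult libraries.

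Subfamilies differed in how they divided. Here too, members that entered the test through larvae of 1 genotype favour calls in that direction. Of the Cpr genes 42 of 72 gene models were tested, and 12 were higher (28.6%) and 13 lower (31%) in A4 larvae, where 8.75% and 25.9% of all genes were, so that the share lower is near the background. The medians were 0.23 for Cpr, 3.45 for the 7 tested genes of Lcp65A with Acp65A and 1.36 for the 5 Lcp genes outside 65A. Of the 7 Lcp65A and Acp65A genes 6 were called higher and 0 lower, also under both rescalings and without each larval library in turn. Of the 5 Lcp genes outside 65A, 2 were called higher and 0 lower, but leaving out 1 larval library moved the count of higher calls between 0 (A4 larvae replicate 1) and 4 (A12 larvae replicate 2), with 1 for each of the other libraries. The 13 lower Cpr genes and Pcp made up all 14 lower calls. After median centring 13 Cpr genes were higher and 7 lower.

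Some features of the gene models were not used by the naming rule. In the BDGP6 annotation, which was used for names and structure alone, all 122 symbols were found. Their proteins had a median of 191.5 residues, from 92 to 1231, against 391 for all 13986 protein coding genes. A single intron in the coding part was present in 79 and none in 17. In 43 the first coding exon was exactly 12 bases long, a structure found in 1.05% of all protein coding genes. It was present in all 7 Ccp84A genes, in all 5 Lcp genes outside 65A, in 27 of 70 Cpr symbols, in 2 of 3 Edg genes, in 1 of 11 symbols of Lcp65A with Acp65A and in 0 of 25 Tweedle genes. Genes called higher in A4 larvae had a median of 112 residues (92 to 346) and those called lower 169.5 (127 to 369). Those with the 12-base exon were 8 of 21 and 5 of 14. These are descriptions, and shorter genes have fewer fragments per FPKM.

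Genes that work beside the cuticle proteins were read from 4 lists of general knowledge. The lists were written by function and not by how their genes moved, with earlier results of these data known. Of 26 tested genes for chitin synthesis, modification and turnover, 2 were higher (7.69%) and 7 lower (26.9%) in A4 larvae, with a median of 0.02. Both shares are near those of all genes (8.75% and 25.9%). The chitinase gene Cht5 stood at 6.5 and 6.61 FPKM in A4 and 34.1 and 28 in A12 larvae (-2.08 ± 0.22, adjusted p = 0.00074), and Cht11 at 5.23 and 5.5 against 26.1 and 20.9 (-1.94 ± 0.18). Cht3 stood at 45.5 and 42.3 against 169 and 119.8 (-1.68 ± 0.21), while the chitin deacetylase gene Cda9 was higher in A4, at 46.1 and 61 against 13.8 and 18.6 (1.67 ± 0.23). Of 17 tested genes listed as other cuticle and apical matrix proteins, 6 were higher and 6 lower (35.3% each), with a median of 0.15. Among the 17 is Cpr, which encodes cytochrome P450 reductase, no cuticle protein, and was not called. The higher ones include obst-F, of the chitin-binding obstructor family, at 71.1 and 99.4 FPKM in A4 and 9.74 and 11.4 in A12 larvae (2.88 ± 0.30, adjusted p = 0.000682). The lower ones include the zona pellucida domain genes neo, at 2.93 and 4.56 against 31.2 and 18.9 (-2.44 ± 0.30, adjusted p = 0.00133), and mey, at 0.985 and 1.24 against 15.5 and 7.74 (-2.51 ± 0.32). The genes of these lists that are given with values were chosen after those values were seen.

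Of 14 tested tanning and hardening genes, 1 was higher (7.14%) and 7 were lower (50%) in A4 larvae, with a median of -1.22. Over all tested genes 8.75% were higher and 25.9% lower. The gene e, for the enzyme that joins beta-alanine to dopamine, stood at 1.16 and 0.423 FPKM in A4 larvae and 757 and 325 in A12 larvae (-8.15 ± 0.50, adjusted p = 9.18e-05). The gene b, for the enzyme that makes beta-alanine, stood at 8.64 and 3.63 against 506 and 269.8 (-5.79 ± 0.48, adjusted p = 0.000288). Ddc, for dopa decarboxylase, stood at 55.9 and 25.5 against 567 and 361 (-3.54 ± 0.39). In none of the 3 did the genotypes overlap. Of 12 tested ecdysone cascade regulators, 0 were higher and 8 lower (66.7%), with a median of -1.50. The nuclear receptor gene Eip78C stood at 0.487 and 0.347 FPKM in A4 larvae and 38.8 and 13.3 in A12 larvae (-4.07 ± 0.44, adjusted p = 0.000795), and Hr4 was listed at 0 in both A4 larval libraries and stood at 6.42 and 2.23 in A12. Most called genes of both lists were lower in A4 larvae, as were most called genes among all tested ones. More cuticle genes were higher than lower. The part of the listed genes in the cuticle gene differences was not tested.

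The salivary glue and pre-glue genes, whose levels change with progress through the third instar, split as well. Of 9 tested, 3 were higher in A4 larvae (33.3%) and 4 lower (44.4%), with a median of -0.88, where 8.75% and 25.9% of all tested genes were. The 3 higher ones were the pre-glue genes ng1, at 168 and 184 FPKM in A4 and 4.4 and 9.4 in A12 larvae (4.56 ± 0.30, adjusted p = 0.000122), ng2, at 60.1 and 88.6 against 0.914 and 2.58 (4.82 ± 0.33), and ng3 (2.83 ± 0.34). The glue gene Sgs5 was lower, at 1159 and 1216 against 3819.8 and 4373 (-1.78 ± 0.18, adjusted p = 0.000566). Of 5 tested larval serum and fat body genes 1 was higher and 1 lower, and of 17 adult female markers 0 were higher and 1 was lower in A4 larvae. Of 6 tested male and testis markers 0 were called. Whether these differences and those of the cuticle genes have a common source was not tested.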

How the data were processed

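RNA was sequenced from whole females in 8 libraries, 2 in each of 4 groups taken from the sample labels. Ribosomal RNA was removed with a Ribo-Zero kit for human, mouse and rat and a TruSeq kit was used, per the labels' protocols. The submitters' processing notes name Bowtie, Bowtie2, TopHat 0.6, Cufflinks and the build dm3, and for other versions and the use of strand the sources used here give nothing. The authors deposited FPKM values with confidence bounds for each gene, so the absolute depth is unknown and a count test could not be used. In the tested cuticle genes, 9.09% to 37.5% of the values above 0 in a library lay outside their own deposited bounds, against 18.2% to 24.6% over all tested genes.

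From these values, 17 genes marked FAIL or HIDATA were removed, and a gene was kept if its mean reached 1 FPKM. Python 3.11.15 with pandas 2.3.3, numpy 2.4.6 and matplotlib 3.10.9 was used for tables and plots. All 4 groups were fitted together on log2(FPKM + 1) with limma 3.58.1 in R 4.3.3, with a trend in the prior variance and no covariate, and p-values were adjusted by Benjamini-Hochberg over all 9679 tested genes. The fit was also run on simulated data in which a gene had the same spread in every group. That run cannot show how the fit behaves where the groups differ in spread, as they do here. Replicate numbers were not used in the fit. Alternatives were other pseudocounts (0.1 and 5), filters (none, and a minimum mean of 5 FPKM), centring on the median, quantile normalization, the compared groups alone, a replicate block, no trend and each library left out. Starts in the files count from 0 and are printed plus 1. The BDGP6 annotation served for names, protein length and introns.

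Genes given with values were, for each genotype comparison, up to 12 called members each way by size, for each stage comparison up to 6 each way, the 6 smallest adjusted p of the interaction, the 3 highest members of each group and the largest called change of each map cluster. Others are said to be chosen after their values were seen. The members, lists and rule were chosen with earlier results of these data known. Sequences of these genes were not used here.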

Additional observations from a re-analysis of the deposited data

Results flagged for a closer look

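The interaction term of limma was called above 0 for 19 cuticle genes and below 0 for 10. Given here are the 6 with the smallest adjusted p, as listed above. The difference of differences was 5.72 for Cpr47Eg, 6.10 for Cpr67Fa1, 5.10 for Cpr65Au, 4.56 for Lcp65Ag3 and 4.21 for Cpr67Fa2 on the log2(FPKM + 1) scale, and -3.27 for Cpr49Ac. In each of the 6 the larval libraries of the genotypes did not overlap. Among adults they overlapped in Cpr47Eg, Cpr65Au, Cpr67Fa1 and Cpr67Fa2, while Lcp65Ag3 and Cpr49Ac were slightly higher in both A4 adult libraries. Cpr65Au was the one with high adult levels of 214 to 321 FPKM. The others did not exceed 1.02 FPKM in adults, so for them the interaction largely restates the larval difference.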

How the results depend on the processing

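The labels give replicate numbers in each group, but the numbers do not pair the libraries (correlations of same-numbered deviations from -0.0617 to 0.0857). With a replicate block 24 cuticle genes were higher and 13 lower in A4 larvae, 13 and 31 differed in A12 between stages, 13 and 38 in A4, and 21 and 12 in the interaction. The number lower in A4 larvae (14) was 7 with a mean of at least 5 FPKM, 8 with median centring, 8 with the compared groups alone and 9 with the block on median-centred values, and 9 to 11 with 1 library left out. The number higher (21) was 20 to 25 with 1 library left out. With a mean of at least 5 FPKM, 5 genes were higher in adults in A12 (13) and 5 in A4 (12). The interaction below 0 (10) was 6 with that filter, 6 with median centring and 5 to 9 with 1 library left out, and above 0 (19) it was 14 to 23. The interaction was not run for the compared groups alone. With fewer genes tested under the stricter filter a smaller count is built in, and for the other settings the cause was not tested. Of 922 repeats of calls of named genes, 890 kept the call, 32 lost it and 0 reversed. All 32 concerned larvae of the 2 genotypes, and the pooled number also holds stage and interaction calls, none of which was lost. Among the 25 named larval calls, they fell on Cpr12A, Cpr49Aa, Cpr51A, Cpr56F, Cpr60D, Cpr65Aw, Cpr65Ec, Cpr66D, Cpr78E, Lcp3 and Lcp9. With the compared groups alone 7 genes lost it, Cpr12A (adjusted p = 0.0695), Cpr49Aa (0.0526), Cpr56F (0.0517), Cpr60D (0.0566), Cpr65Aw (0.0611), Cpr78E (0.113) and Lcp9 (0.127), and with a pseudocount of 0.1 Cpr65Ec did (0.0995). Quantile normalization ended the calls of Cpr51A (0.106) and Cpr78E (0.0507). Of 25 named larval calls, 5 (Cpr47Eb, Cpr47Ec, Cpr60D, Cpr65Aw and Lcp9) moved by over 1.5 times in fold when either A12 larval library was left out, Lcp9 between 3.04 and 8.26, and 4 (Cpr47Eg, Cpr67Fa1, Cpr67Fa2 and Lcp65Ag3) did with the middle of the bounds. The bounds' middle in place of the FPKM, and the block on median-centred values, were chosen after seeing the data. Where 1 library was left out, the lone library of its group was taken to vary like the other groups. With FPKM alone, counting error of weak genes cannot be given.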

Other observations

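The 2 libraries of a group also differed from each other. In A12 larvae 14 of the 21 cuticle genes that were higher in A4 larvae stood higher in replicate 2 and 5 in replicate 1, while 72.9% of all tested genes stood higher in replicate 1. All 12 ecdysone cascade regulators and 11 of 14 tanning genes stood higher in replicate 1, and 8 of 9 glue genes and 5 of 5 larval markers in replicate 2. In A12 adults 39 of 59 tested cuticle genes stood higher in replicate 2 and 9 in replicate 1, where 63.8% of all tested genes stood higher in replicate 1. These are single libraries, and no test was made.

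Some weak genes reached 1 FPKM in a single library. These were Lcp65Af in A4 larvae replicate 1, Cpr78Cc and Ccp84Ab in A4 larvae replicate 2, Edg78E in A12 larvae replicate 1, Cpr64Ad in A4 adults replicate 1 and Cpr92A in A12 adults replicate 1.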
